A study of Caenorhabditis elegans with 2 samples.

Results

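Binding of the homeodomain transcription factor UNC-42 was examined at 6 C. elegans genes of cyclic AMP signalling. The genes were kin-1, which encodes the catalytic subunit of protein kinase A (PKA), kin-2, which encodes its regulatory subunit, the adenylyl cyclase genes acy-1 and acy-2, the phosphodiesterase gene pde-4, and crh-1, which encodes the transcription factor CREB. They are 6 of the 19973 protein-coding genes annotated on the nuclear chromosomes. They were chosen by name, with the peaks at them already known, and kin-1 in particular for its many peaks. The number and the signal of peaks at these genes are therefore a description, and no test was made of them. A gene's peaks were those whose summit lay in the annotated gene body or within 5000 bp upstream of its 5′ end, and 27 of the 4780 summits met that rule.

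Cyclic AMP is made by adenylyl cyclases, which the stimulatory G protein alpha subunit activates, and it is broken down by phosphodiesterases. It binds the regulatory subunits of PKA and frees the catalytic subunits, which phosphorylate targets that include CREB. In C. elegans neurons this pathway is known to raise neurotransmitter release and locomotion rate, and UNC-42 is known to specify the fate of several neuron classes, motor circuit neurons among them.

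The data were chromatin immunoprecipitation sequencing (ChIP-seq) peak lists from 2 biological replicates of 1 group. All worms were hermaphrodites of strain OP173, a transgenic line that stably carries UNC-42 fused at its C terminus to GFP and FLAG, and they were collected as whole late embryos 3 hours after synchronisation by egg bleaching. Chromatin was recovered with an antibody against GFP according to the description, although the antibody entry of the labels reads unc-42. Both replicates came from 1 line, and no worms without the tag were analysed here, so it is not shown that a given peak depends on UNC-42. Whole embryos were used, so the cells in which a site was bound cannot be told apart. The set analysed was the authors' optimal set, which passed a threshold on the irreproducible discovery rate (IDR, a measure of how well peak ranks repeat between replicates). It equals the first 4780 entries, by signal, of a relaxed list of 23778 entries made from both replicates pooled. Relaxed lists of 22676 entries for replicate 1 and 20932 entries for replicate 2 were also used, and these hold background regions as well as peaks. The signal is the authors' peak score and has its own scale in each list, so only ranks were compared between lists, with rank 1 the strongest. In the optimal set the signal ran from 81.6 to 1404 with a median of 138.

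Of the 6 genes, 5 had at least 1 optimal summit and acy-2 had none. Among all protein-coding genes 27.8% had one by the same rule. Long genes offer more room, and among genes whose body plus upstream stretch was at least as long as the shortest of the 6 the share was 48.9%. kin-1 held 15 of the 27 summits, pde-4 held 4, kin-2 and acy-1 held 3 each, and crh-1 held 2. Per 10 kb of gene and upstream stretch this came to 3.45 summits for kin-1, 2.46 for kin-2, 2.17 for acy-1, 1.38 for pde-4 and 0.485 for crh-1, beside 0.477 per 10 kb over the genome. So kin-1, kin-2, acy-1 and pde-4 lay above the genome's density and crh-1 lay close to it. Of the 27 summits 23 lay inside the gene bodies and 4 lay upstream, and 15 of the 23 were of kin-1. Of all optimal summits, wherever they lay, 34.6% were inside a protein-coding gene body. The median signal of the 27 was 149, and 14 of them, 7 of kin-1 and 7 of the other genes, stood among the 2390 strongest of the optimal set.

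kin-1 (WBGene00002189) lies on the plus strand at chrI:14913766-14952226 of the ce11 build. Its 15 optimal summits, each counted singly, were the most of any protein-coding gene. All 15 lay inside the gene body, and neither an optimal summit nor an entry of the relaxed pooled list lay in the 5000 bp upstream of its 5′ end. The nearest optimal summit further upstream was 10793 bp away. The gene is long, with 43.5 kb of body and upstream stretch against a median of 7.03 kb for protein-coding genes. The 23 protein-coding genes with a stretch at least as long, kin-1 among them, had a median of 2 summits. The relaxed pooled list held 43 entries at kin-1, that of replicate 1 held 39 and that of replicate 2 held 37.

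The kin-1 summit of highest pooled signal lay 12.5 kb inside the gene at position 14926228, with a pooled signal of 457 and rank 146 of 4780. It ranked 195 in replicate 1 and 117 in replicate 2, so it was among the strongest entries of both. Next came the summit 26.2 kb inside the gene, with signal 359 and rank 301, which ranked 193 in replicate 1 and 408 in replicate 2. The summit at 20.7 kb had signal 343 and rank 348, and it ranked 432 and 303 in replicates 1 and 2. The summit at 28.0 kb had signal 334 and rank 367, and it ranked 448 and 308. The order of these 4 differed between the replicates, so it rests on the pooled signal. All 4 stood among the 478 strongest of the optimal set. The next summit, 11.0 kb inside the gene, had signal 289 and rank 546, with ranks of 501 and 614 in the replicates.

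The other 10 kin-1 summits were weaker, with pooled signals from 85.1 to 162. The summit at 7.45 kb was the highest of these and ranked 1093 in replicate 1 and 2701 in replicate 2. The pair at 33.3 and 34.4 kb had signals of 135 and 134. They ranked 3067 and 3460 in replicate 1 and 2359 and 2255 in replicate 2, so these neighbours could not be put in order. The first summit of the gene, 2.73 kb from the 5′ end, had signal 91.6 and ranked 9908 in replicate 1 but 3253 in replicate 2. The lowest, 15.9 kb inside the gene, had signal 85.1 and pooled rank 4580. Replicate 2 held it at rank 2220, while the nearest entry of replicate 1 lay 523 bp away. From the first summit to the last was 31629 bp, and the widest stretch without one was 5348 bp.

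**Figure D1:**
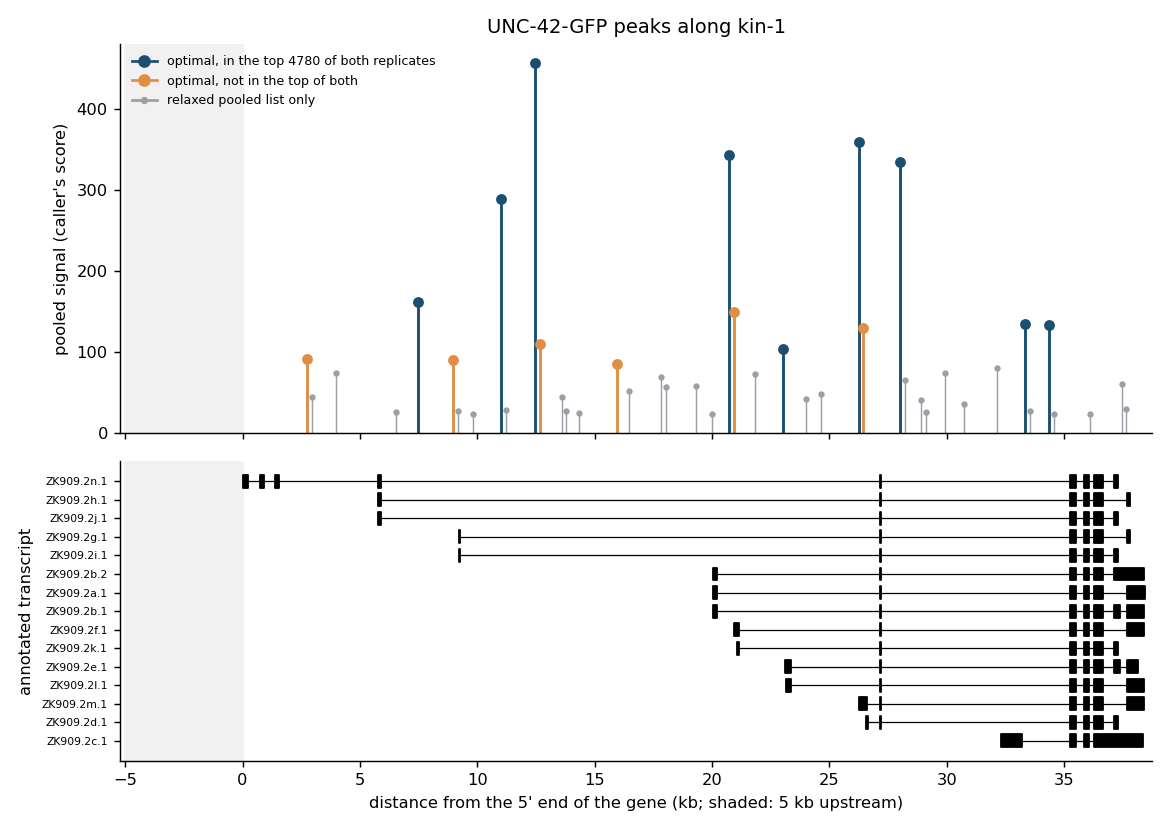
Pooled signal (the authors' score) of each summit along kin-1 against distance from the 5′ end in kb, above the exons of its 15 annotated transcripts. Blue marks the 9 optimal summits within the top 4780 of both replicate lists, orange the other 6, and grey the 28 entries of the relaxed list alone. The shaded 5 kb upstream holds no entry of either kind, and the optimal summits spread from 2.73 to 34.4 kb.

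At kin-1, 3 pairs of neighbouring summits lay under 300 bp apart, and the intervals of each pair overlapped or were 1 interval, so the 15 summits fell in 12 separate intervals. The strongest summit had a partner 213 bp further on with signal 110, which ranked 6197 in replicate 1 and 1189 in replicate 2. The summit at 20.7 kb had a partner exactly 200 bp on with signal 149, which ranked 1619 in replicate 1 and 10127 in replicate 2. The summit at 26.2 kb also had a partner exactly 200 bp on, with signal 130, which ranked 6801 and 4876. In each pair the weaker summit fell outside the top 4780 of at least 1 replicate, while the stronger one was inside in both. Over the genome 51 pairs of neighbouring optimal summits were exactly 200 bp apart and 295 were under 300 bp apart.

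Along the longest kin-1 transcript all 15 summits were intronic. Intron 4, which is 21230 bp long and spans most of the alternative first exons, held 11 summits, or 5.18 per 10 kb. Intron 5 of 8033 bp held 3 and intron 3 of 4223 bp held 1. The other introns held none. In the shorter transcripts, 3 of these positions fall in the first exons of ZK909.2f.1 and ZK909.2m.1, and none falls in a coding part of an exon. kin-1 is known for alternative promoters and first exons that give kinase isoforms with different N termini. Its 15 annotated transcripts begin at 12 distinct positions, and 7 of these had an optimal summit within 500 bp. Among all distinct protein-coding transcript starts 10.2% had one. The starts can share a summit because several lie close together.

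The summit at 26.2 kb fell exactly on the annotated start of ZK909.2m.1. Its weaker partner lay 129 bp before the start of ZK909.2d.1. The summit at 20.7 kb lay 188 bp before the start of ZK909.2f.1, and the partner of that summit lay 12 bp past it. Another summit, of signal 104, lay 101 bp before the start of ZK909.2e.1, and one of signal 90.4 lay 250 bp before the start shared by ZK909.2g.1 and ZK909.2i.1. So 6 of the 15 summits were within 500 bp of a start. The remaining 9 were more than 1000 bp from any, the strongest summit of the gene among them, 3251 bp past the nearest start. The median signal was 139 for the 6 near a start and 135 for the 9 far from one. The start of the longest transcript itself had no summit nearer than 2726 bp. Many worm transcripts are trans-spliced, so an annotated 5′ end need not be where transcription begins. By plain distance, 8 of the 15 summits were nearer to the 5′ end of the next gene downstream, ZK909.3, than to the 5′-most end of kin-1, though they lay inside kin-1.

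kin-2 (WBGene00002190) encodes the regulatory subunit that holds the catalytic subunit inactive until cyclic AMP binds. It lies on the minus strand at chrX:5970647-5977854 (ce11) and had 3 optimal summits. The strongest had signal 191 and pooled rank 1382, with rank 1625 in replicate 1 and 1082 in replicate 2. It lay 2443 bp inside the gene in intron 2 of the longest transcript, 1128 bp before the start of the short transcript R07E4.6b.1. A summit 1088 bp inside the gene, in the same intron and in the annotated noncoding gene R07E4.7, had signal 186 and ranked 1267 and 1610 in the replicates. These 2 swapped order between the replicates and could not be ranked against each other. The weakest, with signal 111, lay 4051 bp upstream in the noncoding gene F22F4.8, and ranked 4061 and 3269. The nearest protein-coding 5′ end to that one was of klp-13, a kinesin-like protein gene, at 3084 bp. None of the 3 annotated kin-2 starts had an optimal summit within 500 bp. The stronger intron window, 201 bases centred on the summit and read from the RefSeq WBcel235 genome, which is the assembly of ce11, is shown as an example with none of the motifs searched below, so it has no capitals.
kin-2 intron summit, minus strand, chrX:5975311-5975511: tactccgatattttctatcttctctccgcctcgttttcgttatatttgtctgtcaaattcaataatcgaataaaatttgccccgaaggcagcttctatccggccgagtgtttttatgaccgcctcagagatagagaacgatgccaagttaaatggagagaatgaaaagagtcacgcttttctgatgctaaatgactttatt

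acy-1 (WBGene00000068) encodes an adenylyl cyclase known to act downstream of the stimulatory G protein in neurons and muscle. It lies on the plus strand at chrIII:4722095-4730919 (ce11) and had 3 optimal summits. The strongest lay 105 bp before its single annotated start, with signal 226 and pooled rank 971. It ranked 1471 in replicate 1 and 700 in replicate 2. This was the only one of the 6 genes with an optimal summit within 500 bp of its 5′-most start. The interval was 159 bp wide, narrower than the median of 456 bp, and it lay in the noncoding gene F17C8.10. A summit 1053 bp upstream had signal 117 and ranked 2459 and 3373 in the replicates. It lay 372 bp from the 5′ end of emb-5, the worm SPT6 gene, which runs the other way, so that summit cannot be given to one of these genes by position. A further summit lay 1978 bp inside the gene in intron 1, with signal 96.0 and ranks of 3835 and 4601. All 3 summits lay in the body or 5000 bp upstream of emb-5 as well, so each also counts for that gene. The window of the strongest summit is shown because it is the one nearest to a 5′-most start and holds a GA repeat, at the edge of the window farther from that start. The capitals mark that repeat as read on the plus strand (RefSeq WBcel235).
acy-1 upstream summit, plus strand, chrIII:4721890-4722090: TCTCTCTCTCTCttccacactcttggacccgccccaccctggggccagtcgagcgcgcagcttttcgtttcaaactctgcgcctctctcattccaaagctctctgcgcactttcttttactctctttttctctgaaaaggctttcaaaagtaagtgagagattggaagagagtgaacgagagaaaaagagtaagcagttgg

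acy-2 (WBGene00000069), at chrV:5976024-5981478 on the plus strand (ce11), encodes another adenylyl cyclase and had no entry in any of the 4 lists. Its stretch of 10.5 kb was empty in the optimal list and in the relaxed pooled and replicate lists alike. Of all protein-coding genes 35.6% had no relaxed pooled entry, and of those with a stretch at least as long as that of acy-2 12.3% had none. The optimal summits on either side lay 10029 bp before its 5′ end and 10132 bp past its 3′ end. In the relaxed pooled list the empty stretch around the gene was 18394 bp long, in that of replicate 1 it was 15093 bp and in that of replicate 2 it was 20684 bp. The genome had 2.37 relaxed pooled entries per 10 kb. An empty stretch says that no region passed the caller's relaxed limit, and without read counts a level for it cannot be given.

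pde-4 (WBGene00020114) encodes a phosphodiesterase that breaks down cyclic AMP. It lies on the minus strand at chrII:7627250-7651246 (ce11) and had 4 optimal summits in 29.0 kb. The strongest, with signal 223 and pooled rank 1001, ranked 821 in replicate 1 and 1163 in replicate 2. It lay 8843 bp inside the gene in intron 2, 239 bp before the start of the transcript R153.1d.1 and 331 bp before that of R153.1f.1. A summit 19184 bp inside the gene in intron 6 had signal 159 and ranked 1754 and 2032. A summit 1137 bp upstream of the 5′ end had signal 137 and ranked 2493 and 2327. These 3 stood in the same order in both replicates. The last, 10733 bp inside the gene in intron 3, had signal 89.3 and pooled rank 4345. It ranked 4323 in replicate 2, and the nearest entry of replicate 1 lay 128 bp away at rank 7635. Of the 9 annotated pde-4 starts, 2 had a summit within 500 bp. The weakest summit's window is shown because it holds TGACG, the core letters of the cyclic AMP response element, which the capitals mark on the minus strand (RefSeq WBcel235).
pde-4 weakest summit, minus strand, chrII:7640413-7640613: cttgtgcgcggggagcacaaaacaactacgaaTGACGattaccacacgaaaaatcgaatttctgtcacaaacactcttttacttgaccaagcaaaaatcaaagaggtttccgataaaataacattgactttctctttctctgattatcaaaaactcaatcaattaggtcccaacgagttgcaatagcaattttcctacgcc

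crh-1 (WBGene00000793) encodes the worm CREB, a transcription factor that PKA and the calcium-dependent kinase CMK-1 can activate. It lies on the plus strand at chrIII:11657767-11693981 (ce11). Its 2 optimal summits were both strong and both far inside this long gene. One, 24044 bp from the 5′ end in intron 2 and 1151 bp before the start of Y41C4A.4g.1, had signal 307 and pooled rank 455, with ranks of 393 and 581 in replicates 1 and 2. By plain distance its nearest protein-coding 5′ end was that of Y41C4A.22, at 13464 bp. The other, 5776 bp from the 5′ end in the 18615 bp intron 1, had signal 285 and rank 559, and ranked 682 and 526. The order of the 2 differed between the replicates. None of the 7 annotated starts had an optimal summit within 500 bp. An entry 378 bp upstream of the 5′ end had signal 80.5 and pooled rank 4872, which is just outside the optimal set, and ranked 4466 and 5393 in the replicates. The lowest summit of the 6 genes inside the set was that of kin-1 at rank 4580. The windows of both summits are shown because they are the strongest outside kin-1 and differ in the motif they hold, and the capitals mark a GA repeat in the first and TAATTA, the core bound by many homeodomain proteins, in the second (RefSeq WBcel235, plus strand).
crh-1 first summit, plus strand, chrIII:11663443-11663643: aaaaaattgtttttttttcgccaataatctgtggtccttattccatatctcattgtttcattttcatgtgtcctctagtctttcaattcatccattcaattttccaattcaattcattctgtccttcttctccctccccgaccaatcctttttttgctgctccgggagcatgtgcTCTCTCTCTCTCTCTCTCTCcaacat
crh-1 second summit, plus strand, chrIII:11681711-11681911: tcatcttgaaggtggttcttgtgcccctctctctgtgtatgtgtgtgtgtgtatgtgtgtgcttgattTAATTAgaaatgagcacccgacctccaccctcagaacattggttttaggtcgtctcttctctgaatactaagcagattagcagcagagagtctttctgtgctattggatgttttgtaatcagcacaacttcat

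Weak entries lay near several starts that had no optimal summit. The relaxed pooled list held 98 entries at the 6 genes, of which 71 were not optimal, and 19 of those 71 had an entry within 100 bp in both replicate lists. The same share over all entries outside the optimal set was not computed, so this count cannot be read as high or low. At kin-1 the start of ZK909.2c.1 had an entry 173 bp away with signal 79.9 and rank 4913, just outside the optimal set. The start of ZK909.2b.2 had one 36 bp away with signal 24.1 and rank 22405, near the end of the list. The replicate 1 entry nearest to that one lay 751 bp from it. The 5′-most kin-2 start had an entry 175 bp away with signal 54.9 and rank 7538, and the nearest replicate 1 entry lay 109 bp from that entry. The 5′-most pde-4 start had one 66 bp away with signal 41.0 and rank 10835. So at kin-2 and pde-4, as at crh-1, the 5′ end had an entry in the relaxed list alone, and at kin-1 the 5′-most start had its nearest entry of either kind 2726 bp away. The share of all protein-coding starts with a relaxed entry as near was not computed, so whether such entries are usual was not tested.

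**Figure D2:**
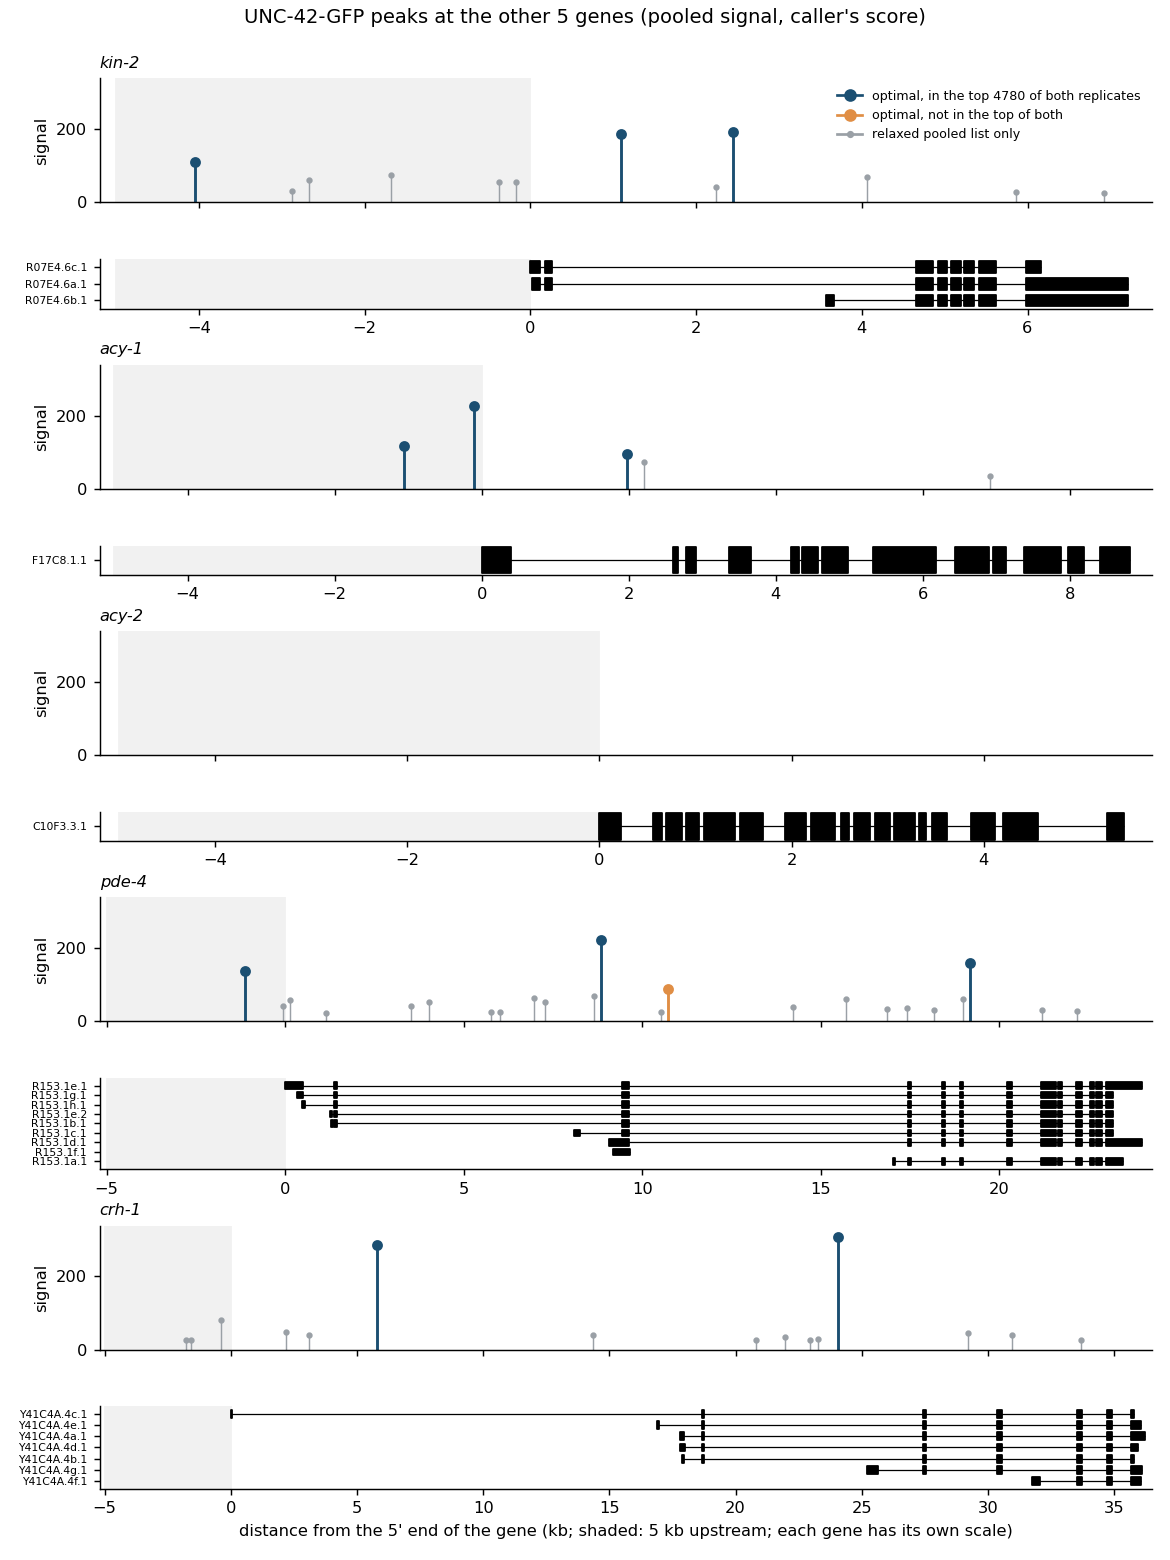
Pooled signal (the authors' score) of each summit at kin-2, acy-1, acy-2, pde-4 and crh-1 against distance from the 5′ end in kb, each above the exons of its annotated transcripts, with colours as for kin-1. acy-2 has no entry of any kind, and the 2 crh-1 summits at 5.776 and 24.044 kb, with signals of 285 and 307, are the highest of these genes.

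The GA repeat, GAGAGAGA on either strand within 100 bp of the summit, was present at 3 of the 27 summits, or 11.1% (95% exact Clopper-Pearson interval 2.35 to 29.2). They were the strongest acy-1 summit, the weaker crh-1 summit and the kin-1 summit at 11.0 kb, beside 11.7% of all optimal summits. With 50 bp to each side 1 summit held the repeat, and with 200 bp to each side 5 did. A wider window has more room for a match, and the shares of all summits given here are for 100 bp alone. The run at crh-1 was 20 bases long, and that at acy-1 was at least 12, since it begins at the edge of the window. TAATTA was present at 1 summit, that of crh-1, or 3.70% (interval 0.0937 to 19.0), beside 10.9% of all. With either replicate alone, or with 200 bp to each side, 2 summits held it. Both intervals hold the share of all summits, and with 27 windows they are wide. They treat the summits as independent, although 15 were of kin-1 and some peaks overlapped, so they are no test. TAAT and ATTA with 3 bases between them, a homeodomain palindrome searched as TAATNNNATTA, was at none, beside 1.88% of all. The cyclic AMP response element TGACGTCA, the site known to bind CREB, was at none, beside 1.05% of all. Its core TGACG, which every full element also holds, was at 4 summits, 3 of kin-1 and 1 of pde-4, beside 25.6% of all. At 19 summits none of these letters was found. A match of letters does not show a bound site, and no match says only that these letters are not in the window. The GC content of the 27 windows had a median of 42.8%, from 33.3 to 57.7%, against a median of 41.8% over all optimal summits.

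Most summits were found in both replicates. Of the 27 summits, 25 had an entry within 100 bp in both replicate lists, or 92.6% (95% exact Clopper-Pearson interval 75.7 to 99.1), against 96.2% of all optimal summits. The optimal set was selected by the IDR threshold and the signal pooled from these same replicates. A high share was therefore partly set in advance, and it is a description. The 2 exceptions, 1 of kin-1 and 1 of pde-4, lacked such an entry of replicate 1. The median distance to the entry was 10 bp in replicate 1 and 7 bp in replicate 2. Within the top 4780 entries of both lists stood 20 of the 27, against 76.8% of all. Another 4 were in the top of replicate 2 alone, 2 in that of replicate 1 alone, and 1 in neither. Of the 7 outside, 6 were kin-1 summits and 1 was the weakest of pde-4, and all summits of kin-2, acy-1 and crh-1 were inside in both.

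Ranks were compared over the matched summits. Over the 25 matched summits Spearman's correlation of the ranks was 0.784, and over all matched optimal summits it was 0.787. The summits share their libraries and were selected on the pooled signal, so this is a description. The median ratio of the larger to the smaller rank was 1.42 for the 25 and 1.35 for all. Ranks were over 3 times apart at 3 of the 25, all of kin-1, and at 3.35% of all. These were the first summit of the gene and the weaker partners at 12.7 and 20.9 kb.

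**Figure D3:**
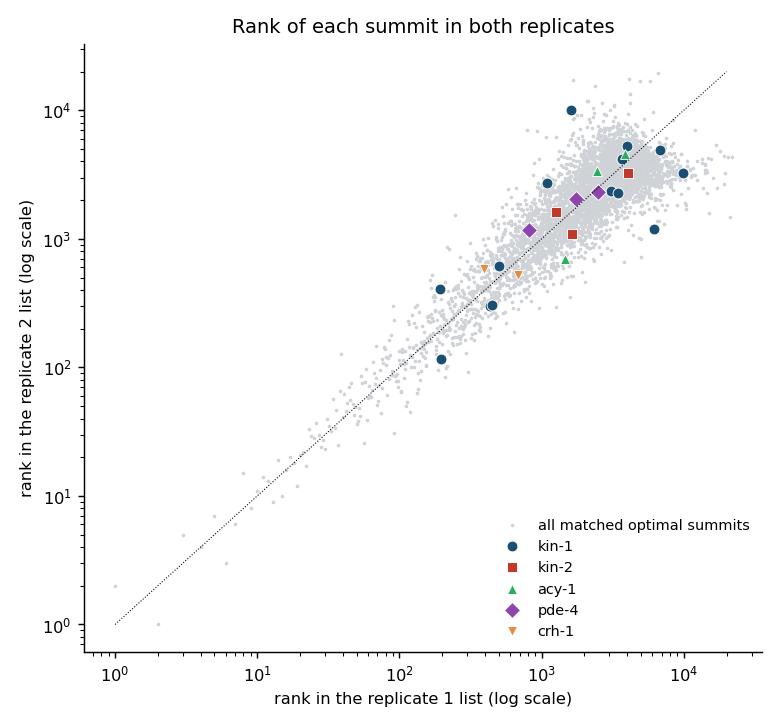
Rank in the replicate 1 list (x axis, log scale) and in the replicate 2 list (y axis, log scale) for the 25 matched summits, with all matched optimal summits in grey and equal ranks on the dotted line. The strongest kin-1 summit, at ranks 195 and 117, lies lowest, and the kin-1 summit at ranks 1619 and 10127 lies farthest above the line.

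Beyond the 6 genes, 26 other genes of cyclic AMP signalling and linked pathways were listed. Of these, 20 had an optimal summit, or 76.9%, beside 27.8% of all protein-coding genes and 48.9% of those with long stretches. The list was chosen with earlier results of these data known, so this share is a description. Some of the listed genes also have shorter stretches than those behind the 48.9%. The list takes in genes of calcium signalling, namely tax-6 with 6 summits and cnb-1, cmk-1, ckk-1 and unc-43 with 3 each. Its values are therefore not of cyclic AMP genes alone. The 26 genes held 47 summits, or 1.25 per 10 kb, beside 0.477 over the genome. The 6 genes together had 1.80 per 10 kb, but 15 of their 27 summits were of kin-1, which was chosen for its many peaks. The rest of the 6 held 12 summits and ran from 0 per 10 kb at acy-2 to 2.46 at kin-2. pxf-1, a Rap guanine nucleotide exchange factor gene, had the highest signal of the list at 769, with rank 28 in replicate 1 and 24 in replicate 2. F47F2.1, which encodes a PKA-like kinase, followed at 662 with ranks of 42 and 46. gsa-1, the stimulatory G protein alpha subunit upstream of acy-1, had 4 summits, the highest of 546 with ranks of 134 and 63. All 3 exceeded the strongest kin-1 summit. The phosphodiesterase gene pde-2 reached 459, just above the 457 of kin-1. The phosphodiesterase gene pde-3 reached 440, and cmk-1, a calcium-dependent kinase gene, reached 378. The cyclase gene acy-3 had 2 summits, the higher of 367 lying 3412 bp upstream, while the cyclase gene acy-4 had none. crtc-1, which encodes a coactivator of CRH-1, had no optimal summit but 5 relaxed entries. pde-5 also had none. Of the 5 cyclic nucleotide-gated channel genes in the list, tax-2, tax-4 and cng-1 had none, while cng-2 and cng-3 had 1 each, with signals of 211 and 127. The cng-3 summit ranked 3717 in replicate 2, while the nearest entry of replicate 1 lay 15527 bp away.

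In a list of 15 genes of neuronal G protein signalling, 13 had a summit, or 86.7%, beside the same 27.8% and 48.9%. This list too was chosen with earlier results of these data known, so its share is a description. Some of its genes also have shorter stretches than those behind the 48.9%. They held 47 summits in all, or 1.98 per 10 kb, beside 0.477 over the genome. gsa-1 and ric-8 stand in both lists. Overlapping gene stretches mean that 45.5% of all optimal summits count for more than 1 gene, which holds for 4 of the 27 summits here, those of acy-1 and the upstream one of kin-2, and for none of kin-1.

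**Figure D4:**
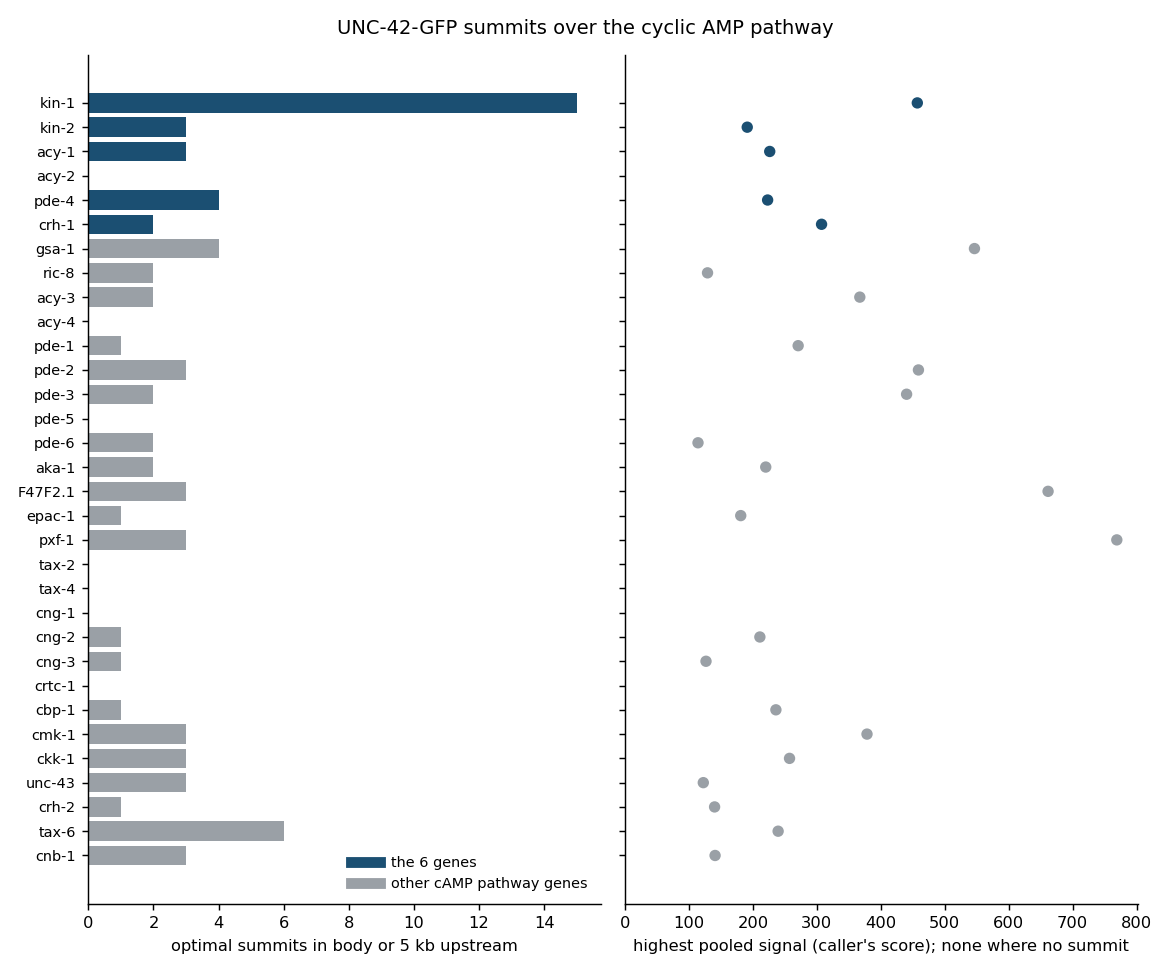
Number of optimal summits in the gene body or 5 kb upstream (left, bars) and highest pooled signal, the authors' score (right, points). The 6 genes are in blue and the 26 other listed genes, of cyclic AMP signalling and linked pathways, in grey. kin-1 has 15 summits and no other gene shown has more than 6, whereas pxf-1, F47F2.1 and gsa-1 have higher signals, 769, 662 and 546, and pde-2 is close to it at 459.

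The gene nearest to kin-1 in number of summits was hmr-1, a cadherin gene, with 13. Then came mpz-1, which encodes a protein of many PDZ domains, with 12. ercc-1, which encodes a subunit of a DNA repair nuclease, had 11. abts-3, an anion transporter gene, and cla-1, an active zone protein gene, had 10 each. Only these genes and kin-1 had 10 or more. They were picked for likeness in this count alone, over all protein-coding genes. Their density ran from 2.03 per 10 kb at hmr-1 to 5.10 at ercc-1, and kin-1 lay within that range at 3.45. The highest signal was 1022 at ercc-1 and 280 at cla-1, with kin-1 at 457 between them.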

How the data were processed

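UNC-42-GFP ChIP-seq peak lists of 2 replicates were analysed on the ce11 build. The deposited signal of each region is a score set by the authors' peak caller, and regions were ranked by it inside each list. The −log10 q value the authors deposited was not used to rank, since 76.9% of optimal peaks shared its ceiling. Per the deposited text files, each list was made from its alignments and 1 control file, and the optimal set passed an IDR threshold. Which aligner and peak caller were used is not given in the sources used. The ce10 lists were not used. The deposited lists give no read counts, so depth is unknown and single peaks carry no error. Clopper-Pearson intervals cover counting error only and treat the summits as independent.

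Summits (start plus the deposited offset, 1-based) were placed on the WBcel235 annotation of Ensembl release 115, using Python 3.11.15, pandas 2.3.3 and scipy 1.17.1. A gene's stretch was its body plus 5000 bp upstream. An entry within 100 bp was the same site in a replicate, and a start counted as occupied with a summit within 500 bp. Sequences came from the RefSeq genome of the same assembly. The counting steps were tested on simulated data. The members and lists were chosen with earlier results of these data known. The text names the 6 genes, the 6 other pathway genes of highest signal, gsa-1, acy-3, acy-4 and crtc-1 whatever their values, genes nearest to or holding a summit, and the 5 nearest to kin-1 in count. pde-5, tax-2, tax-4, cng-1, cng-2, cng-3, tax-6, cnb-1, ckk-1 and unc-43 were named after their values were seen. Other upstream limits, matching distances, motif windows and the 2390 strongest peaks were tried as alternatives, as was each replicate alone.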

Additional observations from a re-analysis of the deposited data

How the results depend on the processing

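Of 64 alternative values, 53 stayed close to the value reported and 11 moved. For a count, close meant within 1.5 times, and for a share of summits within its 95% interval. These intervals are wide for the motifs. Counts and shares have no direction, so none could reverse. The upstream limit could not change the kin-1 count, since its nearest upstream optimal summit was 10793 bp away. The GA repeat was at 3.70% with 50 bp to each side and 18.5% with 200 bp, against 11.1%. TAATTA was at 7.41% with 200 bp, and at 7.14% with replicate 1 alone and 7.41% with replicate 2 alone, against 3.70%. With the 2390 strongest optimal peaks alone, the 6 genes held 14 summits and kin-1 held 7, all 7 intronic, 4 kin-1 starts had a summit, 3234 protein-coding genes had one, and 100% of the remaining member summits were in both replicate lists. Counting a summit only for the gene whose 5′ end is nearest left 15 at the 6 genes and 7 at kin-1. With the gene body alone, 1087 protein-coding genes and 12 of the 26 other listed genes had a summit. With a match within 50 bp, 70.4% of the 27 summits were in both replicate lists. Joining overlapping intervals, an alternative chosen after seeing the data, left 24 intervals at the 6 genes and 12 at kin-1.

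With the 4780 strongest entries of 1 replicate alone, kin-1 had 15 summits from replicate 1 and 14 from replicate 2, kin-2 had 3 and 4, acy-1 had 3 and 3, acy-2 had 0 and 0, pde-4 had 4 and 4, and crh-1 had 3 and 2. No paired analysis was possible because there was only 1 group. Depth is unknown, so whether acy-2 or a weak site would pass with more reads was not tested.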
